A study of Mus musculus with 5 samples.

Results

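The genes described here encode the proteins that add acetyl groups to histones, the bromodomain proteins that read those groups, and the chaperones that carry and deposit histones. The set held 37 genes, chosen by name, and 36 of them were measured by a probe set with 1 gene symbol, out of 19938 genes tested; for Ssrp1 no expression value was analysed here. Each of the 36 had 1 such probe set. Transcript levels came from 5 Affymetrix gene arrays of total liver RNA from male mice about 10 months old on regular food. The 2 control livers were normal tissue of genotype Hdac3FL/+AlbCre+, in which 1 Hdac3 allele is floxed and the other is wild-type. The 3 other arrays were liver tumours of genotype Hdac3FL/-AlbCre+, in which the floxed allele is paired with a null allele. Cre driven by the albumin promoter, a hepatocyte promoter, was present in all 5 mice. Control hepatocytes should therefore lose the floxed allele too. Which cells lost it was not measured here. Every null sample was a tumour and every control was normal tissue, so genotype and tumour cannot be told apart.

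Histone acetylation is set by acetyltransferases and removed by deacetylases such as Hdac3. Acetyltransferases of the GNAT family (Kat2a, Kat2b, Hat1), the MYST family (Kat5 to Kat8) and the p300 and CBP pair (Ep300, Crebbp) each work within larger complexes. Bromodomains bind acetylated lysine and bring remodelling or transcription factors to it. Newly made histones are acetylated in the cytoplasm by Hat1, passed through Nasp and Asf1, and laid onto replicated DNA by chromatin assembly factor 1, whose large and middle subunits are Chaf1a and Chaf1b. Hira, Daxx and Atrx place a replacement form of histone H3 outside replication.

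Hdac3 itself fell. The controls read 8.21 and 8.37 on the log2 scale, while tumours 1, 2 and 3 read 6.78, 6.57 and 6.65. The log2 change was −1.62 (SE 0.13, n = 2 and 3, limma adjusted p = 0.00298). The call was lost without control 1 (change −1.71) or control 2 (−1.54), which leaves 1 control. It was also lost in an ordinary test per gene without moderation (adjusted p = 0.0704). Where its probes lie with respect to the deletion was not analysed here. Median log2 values of the arrays ran from 5.66 to 5.77, and the number of arrays limits the precision. Hepatocyte markers were the brightest of the cell type lists on every array, with mean log2 levels of 11.99 and 12.06 in the controls and 11.85, 11.64 and 11.59 in the tumours.

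Most of the 36 genes did not pass the test. Chaf1b and Nap1l1 rose, 0 fell and 34 did not pass, so 5.56% were called where 10.6% of all genes tested were called (5.6% risen and 4.96% fallen; limma, Benjamini-Hochberg adjusted p under 0.05). At an unadjusted limma p under 0.05 there were 9 (25%), beside 25.2% of all genes. The median log2 change of the 36 was 0.00, beside −0.02 for all genes, and 18 changes were positive and 18 negative. An absolute log2 change over 0.5 was seen in 22.2% of the members and in 22.7% of all genes. These shares were near or below those of the genes at large. The tumour arrays lay all above both controls for 9 members (25%) and all below for 8 (22.2%), beside 21.1% and 23.1% of all genes. Together 47.2% of the members did not overlap between groups, beside 44.2% of all genes. The 95% confidence intervals of 28 members excluded a log2 change of 1 in either direction. Every member value lay above its array's lower quartile, the lowest being 5.20 for Chaf1b in control 2. Both control values of Chaf1b, 5.24 and 5.20, lay below the medians of their arrays, 5.7 and 5.66.

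**Figure D1:**
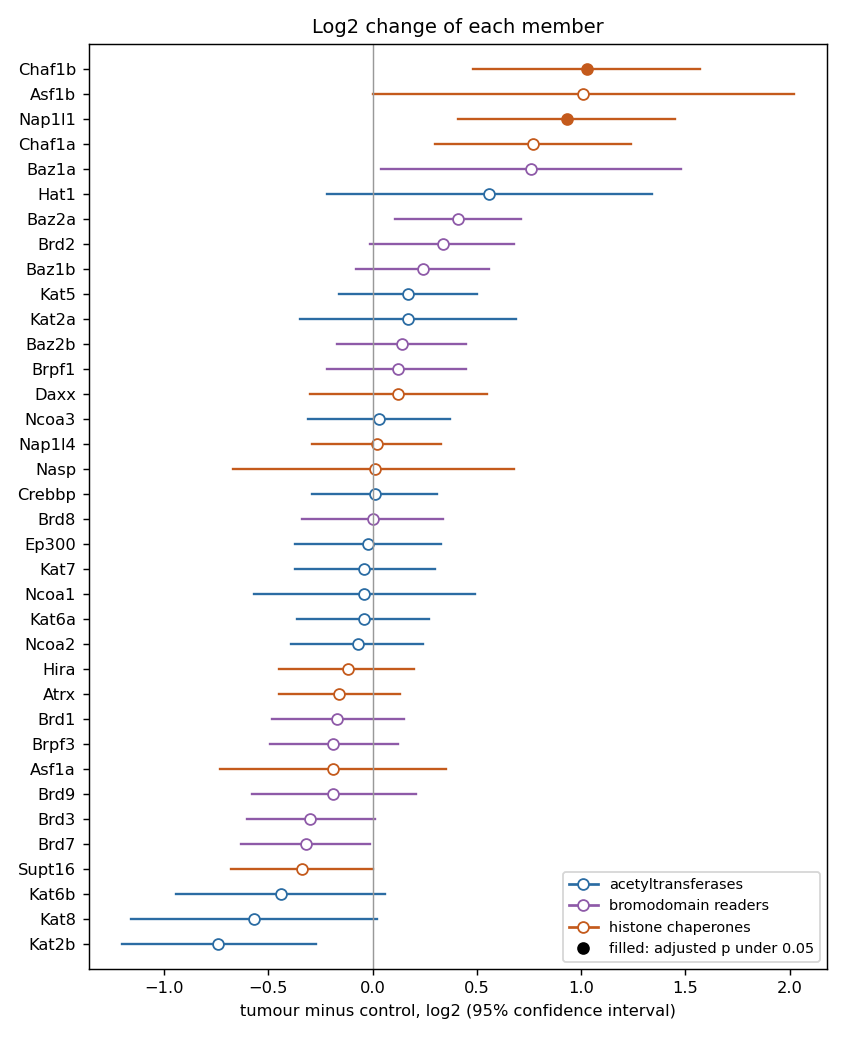
Log2 change of each of the 36 measured members, tumour minus control, in order of size; bars are 95% confidence intervals of the limma fit (n = 2 controls and 3 tumours), and filled points passed adjusted p under 0.05. Only Chaf1b (1.03) and Nap1l1 (0.93) are filled; Kat2b, at −0.74, has the lowest change.

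The 3 largest positive changes were those of Chaf1b, Asf1b and Nap1l1, all histone chaperones, and Asf1b did not pass the test. Chaf1b, the middle subunit of chromatin assembly factor 1, read 5.24 and 5.20 (log2) in the control livers, and tumours 1, 2 and 3 read 5.86, 6.29 and 6.58. All tumours stood above both controls, and the controls differed by only 0.04. The change was 1.03 (SE 0.22), or 2.04-fold (limma adjusted p = 0.0405). Nap1l1, which carries histones H2A and H2B, had 7.62 and 7.61 in the controls and 8.19, 8.58 and 8.87 in the tumours. Its groups did not overlap either, and it rose by 0.93 (SE 0.21), or 1.9-fold (limma adjusted p = 0.0474). Both calls were lost without control 1 or control 2, which leaves 1 control. The changes were then 1.04 and 1.01 for Chaf1b and 0.93 in each case for Nap1l1. Both were also lost without tumour 2 (limma adjusted p = 0.105 for Chaf1b and 0.117 for Nap1l1). An ordinary test per gene without moderation lost both too (adjusted p = 0.212 and 0.221). Nap1l1 was also lost with every array set to 1 median (limma adjusted p = 0.0522). Over 14 alternatives the adjusted p ran from 0.0137 to 0.261 for Chaf1b and from 0.0168 to 0.273 for Nap1l1. Without tumour 1, 4 members were called risen, since Asf1b and Chaf1a joined them.

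Chaf1a, the large subunit of the assembly factor, stood at 5.93 and 5.59 in the controls and at 6.26, 6.60 and 6.74 in the tumours. The groups did not overlap, but its change of 0.77 (SE 0.19) missed the threshold (limma adjusted p = 0.0598, and between 0.0325 and 0.349 over 14 alternatives). Asf1b, the Asf1 paralog found mainly in dividing cells, had 5.55 and 5.78 in the controls and 5.94, 6.66 and 7.42 in the tumours. Its change of 1.01 was as large as that of Chaf1b, with an SE of 0.41 (limma adjusted p = 0.198, and between 0.0452 and 0.566 over 14 alternatives). The tumours spanned 1.48 log2 units, a wider range than 96.8% of genes had. Asf1a, its paralog, had 5.98 and 6.18 in the controls and 5.54, 5.89 and 6.24 in the tumours, which overlap (change −0.19, adjusted p = 0.681). Nasp, the chaperone of soluble H3 and H4, had 6.18 and 6.62 against 5.97, 6.42 and 6.82, also overlapping. Its change of 0.01 had an interval from −0.67 to 0.68, and its sign turned in 7 of the alternatives, among them both other scalings.

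The promoter of Chaf1b is shown with those of Chaf1a and Asf1b, the H3 and H4 chaperones whose tumours also lay above both controls. Each is a stretch of 250 bases before a RefSeq start in GRCm38.p6, on the plus strand: chr16:93883651-93883900 for Chaf1b, chr17:56040166-56040415 for Chaf1a and chr8:83955444-83955693 for Asf1b. Capitals mark TTCCCGC or its reverse complement GCGGGAA, a core string of the sites bound by E2F factors, which drive genes of S phase.
Chaf1b: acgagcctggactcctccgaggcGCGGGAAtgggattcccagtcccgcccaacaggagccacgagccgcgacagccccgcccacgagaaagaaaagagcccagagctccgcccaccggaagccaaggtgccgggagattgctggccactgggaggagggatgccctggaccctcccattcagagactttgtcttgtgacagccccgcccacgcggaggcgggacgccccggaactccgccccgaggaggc
Chaf1a: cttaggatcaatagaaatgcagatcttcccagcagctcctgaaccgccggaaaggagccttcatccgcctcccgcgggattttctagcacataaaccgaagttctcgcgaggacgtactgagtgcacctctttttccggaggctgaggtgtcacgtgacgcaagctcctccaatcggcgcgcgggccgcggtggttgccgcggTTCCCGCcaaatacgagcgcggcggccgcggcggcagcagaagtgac
Asf1b: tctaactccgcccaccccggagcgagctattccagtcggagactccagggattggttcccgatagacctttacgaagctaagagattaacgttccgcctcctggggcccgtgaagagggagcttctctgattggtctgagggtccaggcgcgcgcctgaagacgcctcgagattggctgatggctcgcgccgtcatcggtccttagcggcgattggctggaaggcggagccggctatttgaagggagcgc

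Windows of 250 bases before to 50 bases after the start were searched on both strands. A RefSeq window was at hand for 31 members. The string was present for Chaf1b, Nap1l1, Chaf1a, Brd7 and Ssrp1, 5 of 31 members (16.1%), beside 5.29% of 27025 genes with a window. Relative to the start, the match began at position −47 in Chaf1a, −172 in Nap1l1 and −227 in Chaf1b, which had another at 26. The Nap1l1 window precedes a start that lies within the annotated gene, so it is not printed. The matching windows of Brd7 and Ssrp1 also precede starts within their annotated genes, and the other Ssrp1 window had no match. A gene with several windows was counted if any of them matched. This string was chosen after the windows had been read. The longer strings TTTCCCGC, TTTGGCGC, TTTCGCGC and TTTGCCGC, the first of which contains the shorter one, were present for Kat2a, Brd7, Brpf3 and Ssrp1 (12.9% of members, beside 2.6% of all genes). None of the 5 H3 and H4 chaperones that serve replication was among those 4. A match is a description of the letters and no binding was measured.

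Markers of dividing cells were read on the same arrays. Of 15 measured proliferation markers, 5 rose and 1 fell, with a median log2 change of 1.23, and the median stood at 0.58, 1.50 and 1.63 above the control mean in tumours 1, 2 and 3. Mcm3, a subunit of the replicative helicase, rose by 1.82, the mitotic kinase gene Cdk1 by 1.50, the topoisomerase gene Top2a by 2.59 and Mki67, the antigen used to stain cycling cells, by 2.30. Ccna2 (2.49) and Tk1 (−0.67) were the other called genes, named after their values were seen. Median changes of the 5 H3 and H4 chaperones that serve replication (Asf1a, Asf1b, Chaf1a, Chaf1b and Nasp) were 0.28, 0.84 and 0.97 in tumours 1, 2 and 3. For all 5 of them tumour 1 was the lowest tumour and tumour 3 the highest, as for 12 of the 15 proliferation markers (80%), 15 of the 36 members (41.7%) and 25.1% of all genes. The part of cell division in these values was not tested. RNA was taken from whole tissue, so more cells of a kind and more RNA per cell cannot be told apart.

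**Figure D2:**
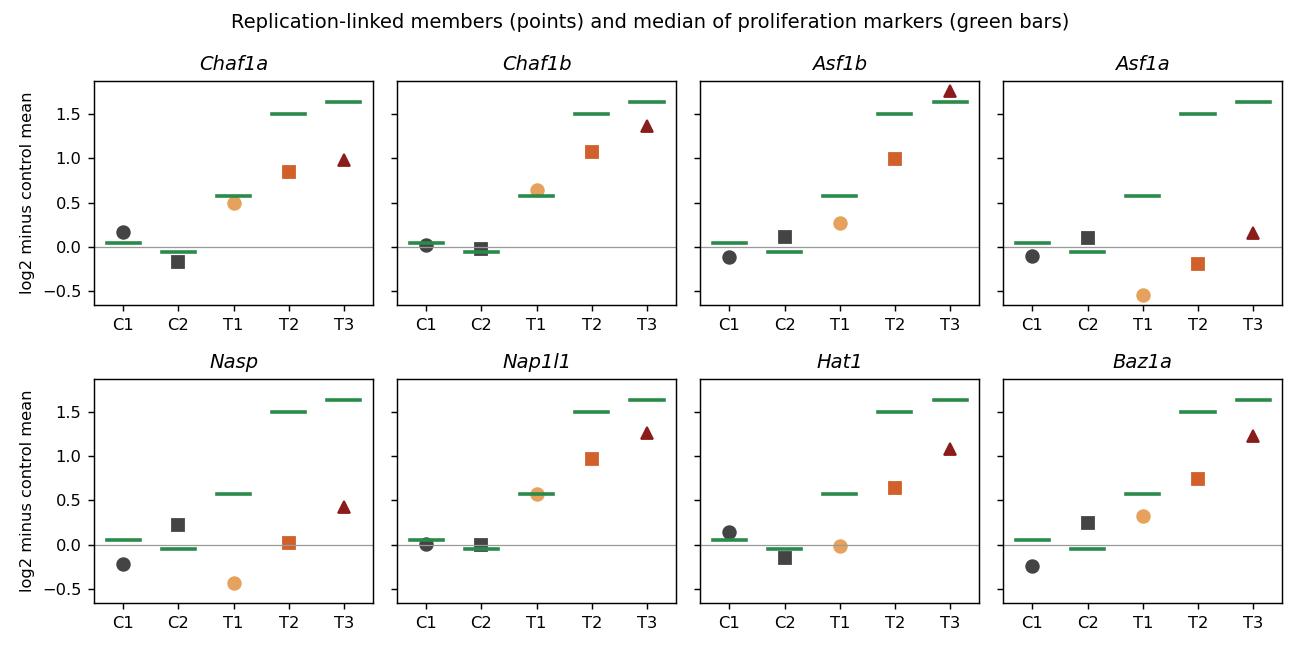
Log2 value minus the mean of the 2 controls (y axis) on each array (C1 and C2, controls; T1 to T3, tumours) for 8 members with a part in making or assembling new chromatin; green bars are the median of 15 proliferation markers on the same array. Chaf1a, Chaf1b, Asf1b, Nap1l1 and Baz1a have every tumour above both controls, whereas Asf1a, Nasp and Hat1 overlap the controls. Nap1l1, Hat1 and Baz1a are not among the 5 H3 and H4 chaperones that serve replication. The 8 are a selection, and other members with ties to replication or assembly, such as Supt16 (change −0.34) and Kat7 (−0.04), are not drawn.

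Paralogs were compared within each array. The log2 difference Asf1b minus Asf1a shifted from its control mean by 0.81, 1.19 and 1.60 in tumours 1, 2 and 3, a mean of 1.20 (SE 0.29). The difference of Nap1l1 minus Nap1l4, a close relative that also carries H2A and H2B, shifted by 0.64, 0.86 and 1.23, a mean of 0.91 (SE 0.23). Nap1l4 itself had 9.13 and 9.25 in the controls and 9.12, 9.29 and 9.21 in the tumours, which overlap (change 0.02, interval −0.29 to 0.33). In both pairs the shift was seen in 3 of 3 tumours. The exact permutation test gave p = 0.1 for each, the smallest that 2 against 3 arrays can give (two-sided, adjusted 0.2 over the 4 pairs compared). This design cannot reach 0.05. Probes that paralogs share could draw their values together.

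Hira, Daxx, Atrx and Supt16 did not pass. Hira, the chaperone that acts at active genes, had 7.06 and 7.17 in the controls and 6.93, 7.13 and 6.91 in the tumours (change −0.12, interval −0.45 to 0.20). Daxx, which works with Atrx at heterochromatin, had 6.62 and 6.67 against 6.67, 6.58 and 7.05 (0.12, interval −0.30 to 0.55), with tumour 3 alone well above the rest. Atrx had 7.77 and 7.73 against 7.61, 7.65 and 7.52 (−0.16, interval −0.45 to 0.13), so its tumours lay just below both controls. Supt16, the large FACT subunit that lets polymerases pass nucleosomes, had 8.32 and 8.36 in the controls and 8.03, 7.83 and 8.13 in the tumours. Its groups did not overlap, and its change of −0.34 had an unadjusted limma p of 0.0488 and an adjusted p of 0.196. Chaf1b and Nap1l1 had changes of the other sign.

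Of the 13 acetyltransferases 0 passed the limma test, beside 10.6% of all genes. The ordinary test without moderation called 0 of them too, but it called only 18 of all 19938 genes. Just 1 had an unadjusted limma p under 0.05, where 25.2% of all genes did. Their median change was −0.04, beside −0.02 for all genes. Kat2b (PCAF), a catalytic subunit of coactivator complexes, had the lowest change among the members. It read 8.62 and 8.82 in control livers and 8.09, 8.18 and 7.68 in the tumours, so every tumour was below both controls. The change was −0.74 (SE 0.19; limma adjusted p = 0.0639), and it passed without tumour 3 (−0.58, adjusted p = 0.0477) and with array weights (0.0343), with a highest adjusted p of 0.349 over 14 alternatives. Kat2a (GCN5), its paralog, had 7.69 and 7.62 in the controls and 7.47, 7.85 and 8.14 in the tumours, which overlap (0.17, adjusted p = 0.708). The log2 difference Kat2b minus Kat2a shifted from its control mean by −0.44, −0.73 and −1.53 in tumours 1, 2 and 3, a mean of −0.90 (SE 0.43; exact permutation p = 0.2, two-sided, adjusted 0.267 over 4 pairs). Hat1, which acetylates new histone H4, had 7.47 and 7.18 in the controls and 7.31, 7.96 and 8.40 in the tumours. Tumour 1 lay among the controls and tumours 2 and 3 above them (change 0.56, SE 0.32, adjusted p = 0.349).

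In the MYST family, Kat8 (MOF), the main acetyltransferase of a lysine in the tail of H4, had 7.82 and 7.96 in the controls and 7.02, 7.18 and 7.77 in the tumours. Tumours 1 and 2 were clearly lower, while tumour 3 lay just under control 1. The change was −0.57 (SE 0.24; limma adjusted p = 0.213), and without tumour 3 it was −0.79 (adjusted p = 0.0185; the range over 14 alternatives was 0.0185 to 0.588). Kat6b (MORF) had 7.39 and 7.04 against 6.86, 6.98 and 6.47, below both controls in every tumour (−0.44, adjusted p = 0.252). Kat5 (TIP60), the catalytic subunit of NuA4, had 7.21 and 6.96 against 7.21, 7.31 and 7.25 (0.17, adjusted p = 0.509). Kat6a (MOZ), needed for blood stem cells, and Kat7 (HBO1), which acts at replication origins, overlapped between groups, each with a change of −0.04 whose sign turned when a single array was left out.

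The 5 general coactivators had mean changes between −0.07 and 0.03. Ep300 had 8.20 and 8.45 in the controls and 8.29, 8.21 and 8.42 in the tumours, and Crebbp had 9.25 and 9.32 against 9.22, 9.39 and 9.27. Their changes were −0.02 (interval −0.37 to 0.33) and 0.01 (interval −0.29 to 0.31), and the difference between the pair changed by −0.03 (SE 0.14; exact permutation p = 0.9, two-sided). The p160 coactivators of nuclear receptors, Ncoa1, Ncoa2 and Ncoa3, had changes of −0.04, −0.07 and 0.03, and their groups overlapped. Ncoa1 was the most variable of the 5, at 6.97 in tumour 1 and 7.66 in tumour 2. All 5 changes of this group turned sign in at least 1 alternative.

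**Figure D3:**
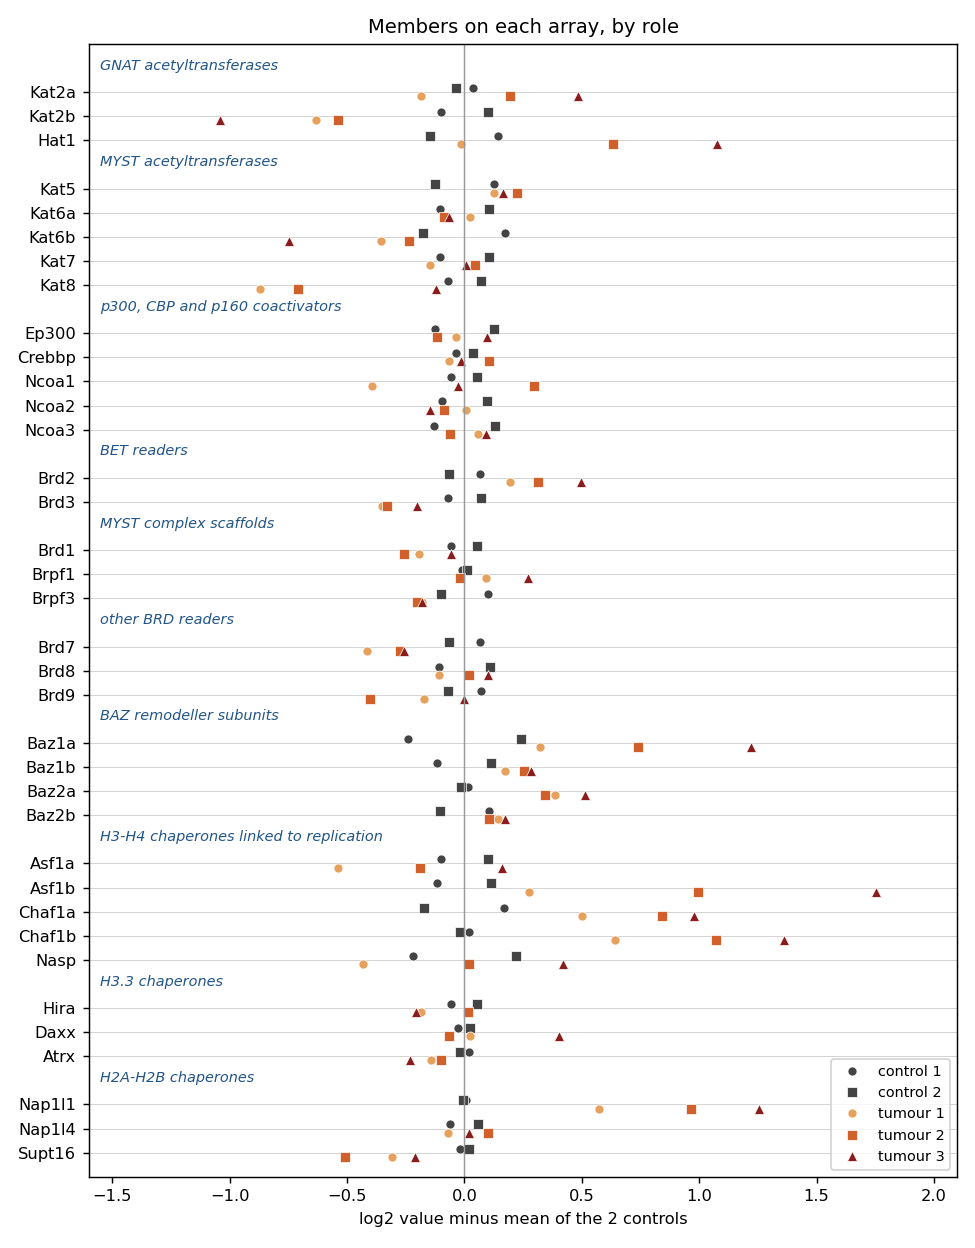
Log2 value minus the mean of the 2 controls (x axis) for each of the 36 measured members on each of the 5 arrays, grouped by role; controls are drawn just above each line and tumours just below it. The coactivators other than Ncoa1 lie close to 0, the 4 BAZ genes lie to the right of both controls in every tumour, and Asf1b reaches 1.76 in tumour 3.

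Of the 12 bromodomain readers 0 passed the limma test, beside 10.6% of all genes. The ordinary test without moderation called 0 of them too, but only 18 of all 19938 genes. An unadjusted limma p under 0.05 was found for 3 readers (25%, beside 25.2% of all genes). The tumours lay all above both controls for 5 readers and all below for 3, where 21.1% and 23.1% of all genes did so. The 4 BAZ genes, which encode the large partners of the ISWI remodelling ATPases, all lay above both controls in every tumour, though Baz2b in tumour 2 and in control 1 had the same value to 2 decimals. Baz1a (ACF1), which helps replication through heterochromatin, had 6.81 and 7.29 in the controls and 7.37, 7.79 and 8.27 in the tumours. Its controls were 0.48 apart, and its change of 0.76 (SE 0.29) had an adjusted p of 0.176. Baz2a (TIP5), which silences ribosomal DNA repeats, had 7.94 and 7.91 against 8.31, 8.27 and 8.44. These groups are tight and apart, and the change was 0.41 (SE 0.12, limma adjusted p = 0.0936). Baz1b (WSTF) and Baz2b had changes of 0.24 and 0.14 (adjusted p = 0.339 and 0.566).

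The BET proteins, which couple acetylated chromatin to transcription, had changes of opposite sign. Brd2 had 8.73 and 8.60 in the controls and 8.86, 8.98 and 9.16 in the tumours, all above. Brd3 had 8.01 and 8.15 against 7.73, 7.75 and 7.88, all below. The changes of 0.34 and −0.30 did not pass (limma adjusted p = 0.212 and 0.213), and their difference was not tested. Brd7, a subunit of a SWI/SNF complex, had 8.47 and 8.34 against 7.99, 8.13 and 8.15, below both controls (−0.32, adjusted p = 0.191). Brd9, of another SWI/SNF complex, had a change of −0.19, and Brd8, of the NuA4 complex of Kat5, had 0.00, and both overlapped. The scaffolds of the MYST complexes, Brd1, Brpf1 and Brpf3, had changes of −0.17, 0.12 and −0.19. Brpf3 was nearly equal in the tumours, at 6.71, 6.69 and 6.71, below controls of 6.99 and 6.79.

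Other genes of the same machinery were examined in lists of textbook complexes. Of 39 subunits of acetyltransferase complexes, 2 fell and 0 rose. Both, Sgf29 (−0.55) and Tada1 (−0.68), belong to SAGA, a complex in which Kat2a or Kat2b is the enzyme. Each of these calls held in 7 of 14 alternatives. The SAGA subunits did not move together. Supt7l (0.26), Supt20 (0.24) and Taf6l (0.31) lay above both controls in every tumour, while Tada2a (−0.42) and Tada2b (−0.12) lay below, and none of them passed. Of 19 other bromodomain genes, Atad2, an ATPase bound to new chromatin, rose by 1.13, Smarca2, a SWI/SNF ATPase, fell by 1.27 and Cecr2, a partner of the ISWI ATPases, fell by 0.76. Of 28 other chaperones and assembly factors, Mcm2, a helicase subunit that also binds histones, rose by 1.58, and Rbbp4 fell by 0.69. Rbbp4 is the small subunit of chromatin assembly factor 1 and read 9.99 and 10.05 in control livers and 9.24, 9.21 and 9.55 in the tumours, all below. Of the 3 subunits of this factor, then, Chaf1b rose, Rbbp4 fell and Chaf1a did not pass. Median changes of the 3 lists were −0.11, 0.05 and 0.07. The shares called were 5.13%, 15.8% and 7.14%, beside 10.6% of all genes.

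Among the deacetylases, the counterpart of the acetyltransferases, 5 of 18 fell and 1 rose (33.3% called, beside 10.6% of all genes). Hdac3, the gene targeted by design, is 1 of these 5. The median change of the list was −0.26, beside −0.02 for all genes. Besides Hdac3, Hdac11 fell by 0.85 and Hdac6, a mainly cytoplasmic enzyme, by 0.77, and Sirt6 rose by 0.70. Sirt3 (−1.27) and Sirt7 (−0.51), named after their values were seen, were the other called genes. Without control 1 or control 2, 0 genes of these lists, or of the proliferation markers, and 0 of the 36 members, passed the test, and 129 and 108 of all genes did. Of the 19 called genes of these lists, proliferation markers included, 14 lost their call without tumour 2, all but Cdk1, Mcm3, Hdac3, Hdac11 and Sirt3. Without tumour 1, 8 lost it, namely Cecr2, Hdac6, Rbbp4, Sgf29, Sirt3, Sirt6, Sirt7 and Tk1, and without tumour 3 Sirt7 did.

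**Figure D4:**
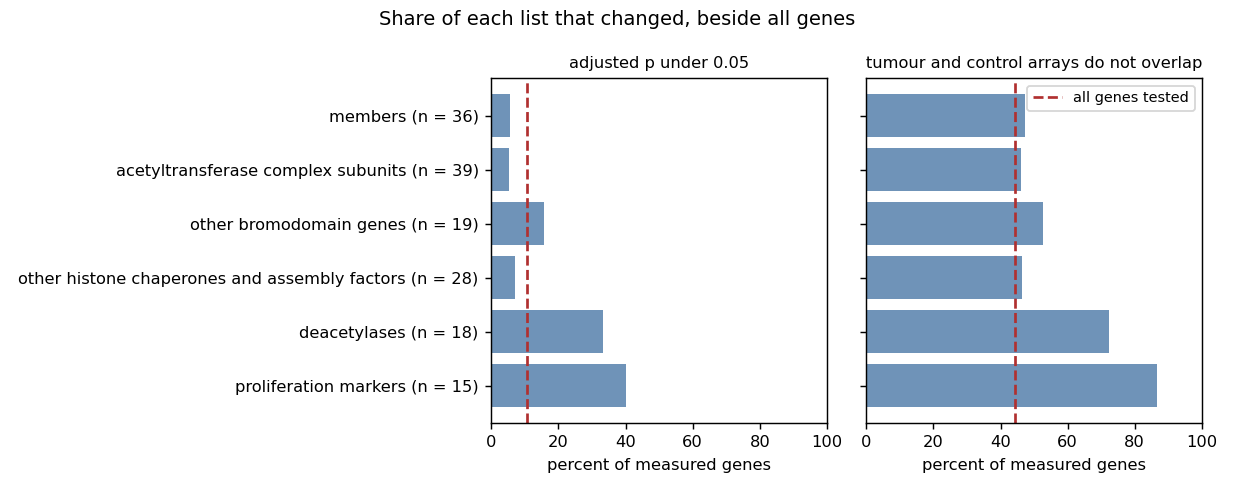
Percent of measured genes of each list past a limma adjusted p of 0.05 (left) and percent whose tumour and control arrays do not overlap (right); dashed lines give all genes tested, 10.6% and 44.2%. The members stand at 5.56% and 47.2%, and other bromodomain genes, proliferation markers and deacetylases stand to the right of both lines. The deacetylases include Hdac3, the gene targeted by design.

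Markers of other cell types also differed between the arrays. Of 12 macrophage markers, 7 rose and 0 fell, and their mean log2 level was 6.64 and 7.12 in control livers, against 9.24, 8.13 and 8.05 in tumours 1, 2 and 3. Of 6 T cell markers 0 passed, with mean levels of 4.82 and 4.81 in the controls and 5.25, 5.35 and 6.53 in the tumours. The endothelial list stood at 7.71 and 7.86 in the controls and at 8.66, 7.72 and 6.48 in the tumours. Of 6 cholangiocyte, 3 B cell and 4 neutrophil markers 0 passed, 1 of 8 stellate or fibroblast markers rose and 2 of 10 hepatocyte markers fell. The macrophage markers differed among themselves. Of the 7 that rose, 6 were highest in tumour 3. That tumour was also the highest for 24 of the 36 members (66.7%), Chaf1b, Nap1l1 and Asf1b among them, and for 46.6% of all genes. In the fit with array weights, tumour 3 had the lowest weight, 0.41, beside 0.86 and 1.32 for tumours 1 and 2 and 1.46 for each control. Whether the order of the tumours comes from the tissue or from the array was not tested. The 5 markers that did not pass, Clec4f, Vsig4, Cd5l, Marco and Timd4, were highest in tumour 1. As examples chosen after their values were seen, C1qb, a complement gene, had 6.41 and 7.10 in the controls and 9.86, 9.53 and 10.91 in the tumours, and Clec4f, a marker of resident liver macrophages, had 7.51 and 7.87 against 9.28, 6.37 and 5.03. The mean T cell level was also highest in tumour 3. The part of these cells in the members' values was not tested.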

How the data were processed

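Arrays were hybridised with biotin-labelled RNA, 1 per liver, 2 controls and 3 tumours, grouped by the genotype and tissue in the titles. The values are the authors' deposited log2 summaries, 1 for each array and probe set. The submitters' processing notes name the tools RMA and GCOS. RMA summaries compress large differences. Of 28853 probe sets, 21789 had 1 symbol in the platform annotation, and the probe set of highest mean stood for each of 19938 genes. There were 0 columns of other samples.

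Tumour minus control was fitted over all genes with lmFit and eBayes of limma 3.58.1 (R 4.3.3), no covariate, 3 residual and 2.98 prior degrees of freedom, two-sided, Benjamini-Hochberg adjusted, threshold 0.05; intervals are 95%. The fit was also run on simulated arrays with independent normal noise. That cannot show how it does where tumours differ among themselves, and no result here rests on it. Paralog differences had an exact permutation test of 2 against 3 arrays. Alternatives were other scalings, a dim filter, other probe set rules, variance models, array weights, a replicate block, other thresholds and leaving out each array. Limma p-values rest on each gene's spread between these arrays, drawn toward the spread of all genes. The labels call the arrays biological replicates. No batch is given in the sources used here.

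Members and lists were chosen with earlier results of these data known; roles follow textbook function. The rule named all measured members, Hdac3 and up to 4 called genes of smallest p per list; exceptions are marked. Promoters are from RefSeq, GRCm38.p6. Python 3.11.15, pandas 2.3.3 and matplotlib 3.10.9 were used.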

Additional observations from a re-analysis of the deposited data

How the results depend on the processing

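The count of risen members, 2, was 1 with arrays shifted to a common median, 0 with an ordinary test per gene without moderation, and 0 and 4 at adjusted p thresholds of 0.01 and 0.1; leaving out 1 array gave 0 to 4. The count of fallen members, 0, was 2 with array weights, 1 at a threshold of 0.1 and 1 (Kat8, −0.79, adjusted p = 0.0285) with the replicate number as a replicate block, and leaving out 1 array gave 0 to 2. In the replicate block fit tumour 3 has no partner and does not enter the estimate; its risen count was again 2. Same-numbered arrays did not deviate together over genes (correlations of 0.00 and −0.01), and differently numbered ones gave 0.01 and −0.01. With 2 controls, whose deviations mirror each other, this cannot exclude a pairing that affects some genes. The median change of the members, 0.00, was between −0.10 and 0.06 when 1 array was left out, and between −0.05 and 0.00 in the other settings. Repeated quantile normalization, the dim filter and keeping probe sets of several symbols gave 2 risen and 0 fallen members. The dim filter kept all 36 members, but its limit of 5.45 was set on the mean of all 5 arrays. Chaf1b, with a control mean of 5.22 and a tumour mean of 6.24, passed it only through its tumours. The filter is therefore no independent check of that call. Averaging probe sets cannot change a member's value, since each has 1. Of 28 comparisons of the 2 called members with an alternative, 9 lost the call; of 476 comparisons of the 34 others, 8 gained one. The called count over all genes, 2106, was 3252 with array weights, 18 without moderation, 1266 without tumour 2, and 129 and 108 without control 1 or 2. Called deacetylases ran from 0 to 6 fallen, called proliferation markers from 0 to 12 risen, and called acetyltransferase complex subunits from 0 to 5 fallen. With 2 controls, each interval leans on variance borrowed from other genes.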

Other observations

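Spread between the tumours was uneven across the members. The range over the 3 tumours had a median of 0.26 log2 units, beside 0.33 for all genes. Asf1b (1.48), Hat1 (1.09), Baz1a (0.90), Nasp (0.85) and Kat8 (0.75) had the widest ranges among the members. For all 5 of these tumour 3 was the highest tumour and tumour 1 the lowest, as for 41.7% of the members and 25.1% of all genes. Brpf3 (0.03), Baz2b (0.07), Kat5 (0.11) and Baz1b (0.11) had the narrowest. Among the 8 members below both controls in every tumour, tumour 3 was the lowest for Kat2b, Kat6b and Atrx, at 7.68, 6.47 and 7.52.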
